A study of Mus musculus with 6 samples.

Results

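The genes described here are 36 endothelial identity genes, chosen by symbol from a list of surface, transport and transcription factor genes of the cells that line blood vessels. All 36 were among the 46095 rows of the count table. RNA was sequenced from 3 hearts of STAT3cKO mice, in which the series title places the deletion of Stat3 in cardiomyocytes, and from 3 hearts of wild-type mice. The labels give no age, sex, strain, litter or batch, name no Cre line, and do not say that each library came from a separate animal. The p-values below therefore set the difference between genotypes only against the spread among these samples, and that spread may be technical. STAT3cKO hearts are called replicates 3, 6 and 91 and wild-type hearts replicates 1, 3 and 4, after the numbers in their titles.

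Endothelial cells keep blood inside the vessel and select what leaves it. They are held together by junctions built around VE-cadherin (Cdh5) and PECAM-1, and their identity is maintained by ETS and SOX factors. In the heart the capillary endothelium is also specialised to pass fatty acids to cardiomyocytes, with GPIHBP1 anchoring lipoprotein lipase, FABP4 binding fatty acids inside the cell, and caveolae formed by caveolins. The list was drawn up for cells that line blood vessels, not for cardiomyocytes, the cells named for the deletion. Which cells of these hearts made each transcript was not measured. In whole-heart RNA, fewer endothelial cells and less RNA per endothelial cell cannot be told apart.

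Total counts ran from 15416877 to 17867944 in STAT3cKO hearts and from 16168682 to 18264052 in wild-type hearts. Stat3, the targeted gene, was at 52.9, 63.8 and 59.6 CPM (counts scaled to a common library size, with TMM factors) in STAT3cKO hearts and 99.7, 85.8 and 97.5 CPM in wild-type hearts. No STAT3cKO heart reached the wild-type range. Across all tested genes the difference between genotypes moved with transcript length, from a median log2 fold change of 0.35 for transcripts under 1500 nt to -0.18 for those of 3500 nt or more. Results below come from edgeR's quasi-likelihood test without a correction and, where stated, with a length and GC offset, which removes from every heart the trend of its counts on transcript length and GC content. The p-values are adjusted by the Benjamini-Hochberg method across the 14484 genes tested, a gene passes under 0.05, and each log2 fold change is the STAT3cKO level over the wild-type level, with its standard error (SE). For Stat3, a 6042 nt transcript, it was -0.68 ± 0.10 (SE, adjusted p = 0.000677 by edgeR), and -0.40 with the offset (adjusted p = 0.0116).

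Endothelial genes were lower or did not pass. Of the 36 genes, 35 had enough counts to be tested, and 12 of those fell, 0 rose and 23 did not pass. Among all tested genes, 12.6% were lower and 13.2% higher in STAT3cKO hearts by the same test. Under the offset the numbers were 13 lower and 0 higher, against 7.47% lower and 10.4% higher among all genes. The 12 genes called without the offset were all called with it, and Sox18 joined them. Leaving out 1 heart at a time gave 8 to 15 genes lower and 0 to 2 higher. At an unadjusted p under 0.05 only Egfl7 was higher, and DESeq2 and limma-voom called 0 of the genes higher. The median log2 fold change over the 35 genes was -0.26 without the offset and -0.26 with it, beside -0.00 and 0.02 for all genes.

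**Figure D1:**
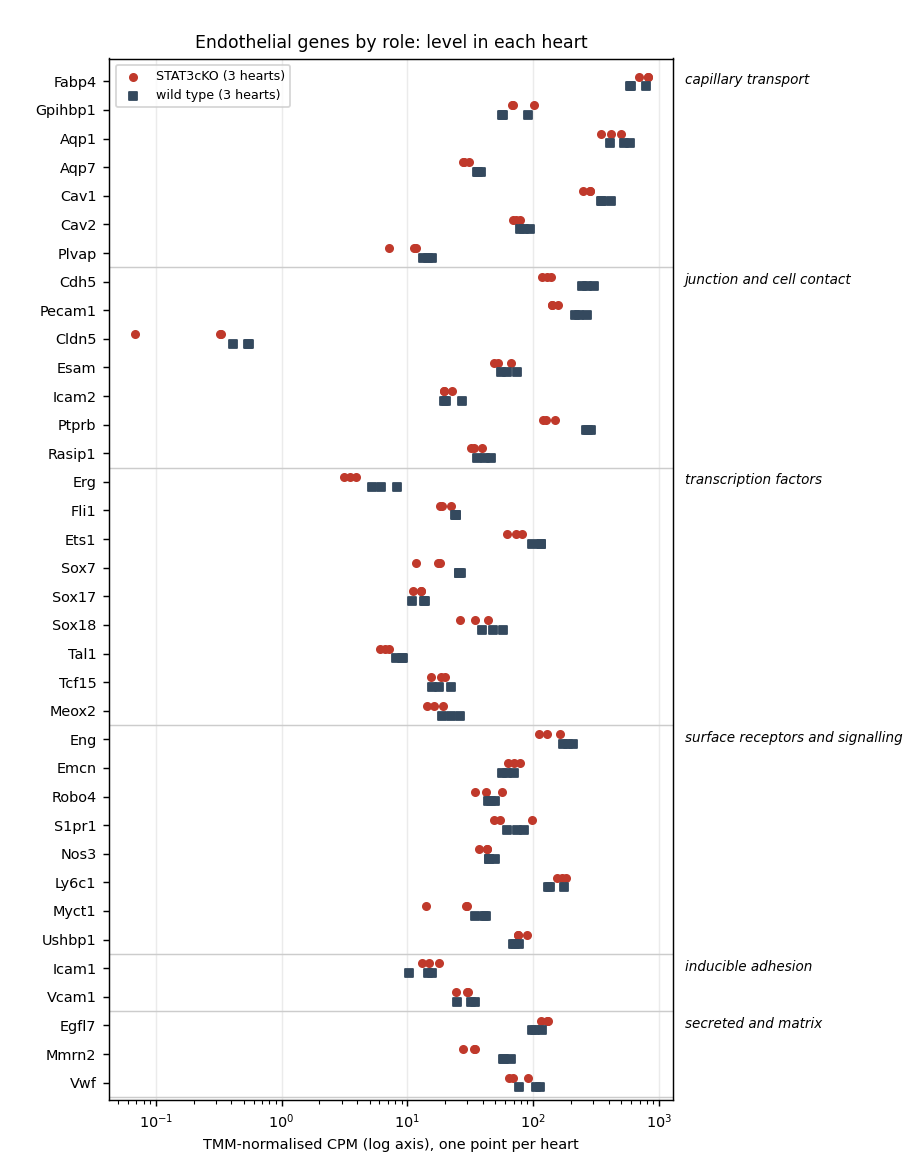
TMM-normalised CPM (log axis) of the 36 endothelial genes in each heart, STAT3cKO as circles above and wild type as squares below, by role. The groups stand apart for Cdh5, Ptprb, Pecam1 and Mmrn2, mix for Fabp4, Emcn and Sox17, and Cldn5 lies far left of the rest, at 0.549 CPM or less.

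In 16 of the 35 tested genes every STAT3cKO heart was below every wild-type heart, and in 0 was every STAT3cKO heart above. Over all tested genes these shares were 21.5% and 21.5%. The 6 tested junction genes had a median log2 fold change of -0.46, the 9 transcription factors -0.44 and the 7 capillary transport genes -0.26, while the 8 surface receptors and signalling genes stood at -0.11. These medians are descriptions, and no test was made between the groups.

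Junction genes split into 3 that fell strongly and 3 tested genes that did not pass. Cdh5 encodes VE-cadherin, the adhesion molecule of endothelial adherens junctions (GRCm38 chromosome 8, 104101625 to 104144511). It stood at 138, 129 and 117 CPM in STAT3cKO hearts, against 306, 246 and 269 CPM in wild-type hearts. The highest STAT3cKO heart lay far below the lowest wild-type heart. Its log2 fold change was -1.09 ± 0.11 (SE, adjusted p = 6.03e-05 by edgeR), which leaves 46.8% of the wild-type level, and -0.96 with the offset (adjusted p = 0.000152).

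Ptprb (chromosome 10, 116275523 to 116389535) encodes the endothelial phosphatase VE-PTP, which holds VE-cadherin and the receptor TIE2 in a dephosphorylated state. Its level was 127, 149 and 119 CPM in STAT3cKO hearts and 288, 262 and 272 CPM in wild-type hearts, with no overlap. The log2 fold change was -1.06 ± 0.10 (SE, adjusted p = 6.03e-05 by edgeR). Its transcript is the longest of the 36 at 11911 nt, and with the offset the log2 fold change was -0.63 (adjusted p = 0.000764). The call held under the correction although the value moved towards 0. Pecam1 (chromosome 11, 106654217 to 106750628), a homophilic adhesion molecule at endothelial cell borders that platelets and leukocytes also carry, was at 141, 157 and 141 CPM in STAT3cKO hearts against 266, 232 and 214 CPM in wild-type hearts. The groups did not overlap, and the log2 fold change was -0.69 ± 0.10 (SE, adjusted p = 0.000747 by edgeR), with -0.61 under the offset. Cdh5, Ptprb and Pecam1 passed in each of the 6 fits that left out 1 heart, with and without the offset.

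The other junction genes gave smaller values, all below 0. Rasip1, an effector of the small GTPase RAP1 in vessel lumen formation, had a log2 fold change of -0.23 ± 0.12 (SE, adjusted p = 0.163 by edgeR). Esam, an adhesion molecule of endothelial tight junctions, had -0.20 ± 0.13 (adjusted p = 0.301), and Icam2, an integrin ligand at endothelial junctions, had -0.11 ± 0.14 (adjusted p = 0.575). In all 3 the hearts of both genotypes overlapped. The length correction moved Icam2, a 1282 nt transcript, to -0.33 (adjusted p = 0.0855). Rasip1 shares 20.4% of its exon bases with Izumo1 on the same strand, so its counts are uncertain. Exons of Sox17, Eng, Nos3, Icam1, Vcam1 and Egfl7 also overlap those of other genes, by up to 25.2% of the bases with a single gene (Nos3), and no strand setting is stated, so their counts are uncertain to that extent.

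Cldn5, the main claudin of endothelial tight junctions, was hardly counted. It held 1, 5 and 6 reads in STAT3cKO hearts and 8, 9 and 10 reads in wild-type hearts, at most 0.549 CPM, and was too low to be tested in the main fit. Kank3 and Notch4, from the list of other endothelial genes, were also too low for that fit, at no more than 1.07 and 0.656 CPM in any heart.

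Endothelial transcription factors that fell came from the ETS, SOX and homeobox families. Of 9 tested, 4 fell and 0 rose, and 5 fell with the offset; by DESeq2 and limma-voom 0 rose. Every one of the 9 had a log2 fold change below 0 without the offset. Erg, the ETS factor most restricted to endothelium, was at 3.48, 3.90 and 3.12 CPM in STAT3cKO hearts and 5.25, 8.23 and 6.14 CPM in wild-type hearts. These are low levels and the wild-type hearts spread widely, but the groups did not overlap (log2 fold change -0.90 ± 0.22, SE; edgeR adjusted p = 0.0105; -0.82 with the offset, adjusted p = 0.0205). Leaving out wild type replicate 3 left Erg short of the threshold (adjusted p = 0.0551).

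Ets1, an ETS factor shared with lymphocytes, had 82.0, 61.7 and 72.3 CPM in STAT3cKO hearts, against 115, 97.1 and 114 CPM in wild-type hearts. It fell without overlap, with a log2 fold change of -0.60 ± 0.11 (SE, adjusted p = 0.00273 by edgeR) and -0.40 with the offset (adjusted p = 0.0379). In the fits with the offset that left out 1 heart, Ets1 passed in 2 of 6. Fli1, another ETS factor that blood cells also express, had a log2 fold change of -0.29 ± 0.11 and did not pass (adjusted p = 0.0662, and 0.123 with the offset), although all its STAT3cKO hearts lay below the wild-type hearts.

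The SOXF factors Sox7, Sox17 and Sox18, which act together in vessel formation and arterial fate, gave different values. Sox7 was at 18.2, 11.8 and 17.5 CPM in STAT3cKO hearts and 26.8, 25.9 and 25.8 CPM in wild-type hearts. Its wild-type hearts were nearly identical and all STAT3cKO hearts lay below them (log2 fold change -0.72 ± 0.15, SE; edgeR adjusted p = 0.00391; -0.64 with the offset). Sox18, the most abundant of the 9 factors per kb of transcript, had 44.0, 26.0 and 34.6 CPM in STAT3cKO hearts against 57.3, 47.6 and 39.1 CPM in wild-type hearts. The ranges overlapped, and Sox18 passed with the offset (log2 fold change -0.66, edgeR adjusted p = 0.0154). It did not pass with the offset for length alone (-0.62, adjusted p = 0.0567) or in the main fit without an offset (-0.46 ± 0.20, adjusted p = 0.132). Without an offset Sox18 passed by DESeq2 (adjusted p = 0.0405) but not by limma-voom (0.0745). By edgeR it also passed without a low-count filter (adjusted p = 0.000312) and without STAT3cKO replicate 3 (0.033). Sox17 had a log2 fold change of -0.06 ± 0.14 (adjusted p = 0.791), and 0.02 with the offset.

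Meox2 and Tcf15 are partner factors that drive fatty acid uptake genes in the endothelium of the mouse heart. Meox2 was at 14.3, 19.1 and 16.4 CPM in STAT3cKO hearts, against 22.2, 18.97 and 26.2 CPM in wild-type hearts. STAT3cKO replicate 6 and wild type replicate 3 had nearly the same level, so the groups just overlapped. Meox2 passed (log2 fold change -0.44 ± 0.14, SE; edgeR adjusted p = 0.0407; -0.47 with the offset, adjusted p = 0.0342), but not in the fits that left out STAT3cKO replicate 3 or 91 or wild type replicate 1 or 4 (adjusted p up to 0.173), nor by limma-voom (0.0507). Tcf15 had a log2 fold change of -0.06 ± 0.15 (adjusted p = 0.784). As its transcript is short, at 980 nt, the offset moved it to -0.42 (adjusted p = 0.056). Tal1, a factor shared by endothelium and blood cell precursors, had -0.41 ± 0.15 (adjusted p = 0.0712), and -0.26 with the offset.

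Among capillary transport genes Cav1, Plvap and Aqp7 fell, while the fatty acid genes Fabp4 and Gpihbp1 did not pass. Of 7 tested, 3 fell and 0 rose, with and without the offset, and Cav1 alone fell without wild type replicate 1 or without wild type replicate 3. Cav1, which forms caveolae in endothelium and also in adipocytes and smooth muscle, was at 281, 282 and 249.8 CPM in STAT3cKO hearts against 415, 347 and 351 CPM in wild-type hearts. No value overlapped, and the log2 fold change was -0.45 ± 0.10 (SE, adjusted p = 0.00746 by edgeR), with -0.46 under the offset. Cav2, its partner in caveolae and its neighbour on chromosome 6, had a log2 fold change of -0.23 ± 0.09 and did not pass (adjusted p = 0.0876, and 0.0921 with the offset), although every STAT3cKO heart was below every wild-type heart.

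Because these neighbours encode partners and only Cav1 passed, the stretch around each start is shown from RefSeq (GRCm38.p6, plus strand), 250 bases before the start to 50 after it. Capitals mark matches to the ETS motif CNGGAAG on either strand, of which Cav1 has 0 and Cav2 has 2. The difference in call between Cav1 and Cav2 was not tested.
Cav1 (chr6:17306085-17306384): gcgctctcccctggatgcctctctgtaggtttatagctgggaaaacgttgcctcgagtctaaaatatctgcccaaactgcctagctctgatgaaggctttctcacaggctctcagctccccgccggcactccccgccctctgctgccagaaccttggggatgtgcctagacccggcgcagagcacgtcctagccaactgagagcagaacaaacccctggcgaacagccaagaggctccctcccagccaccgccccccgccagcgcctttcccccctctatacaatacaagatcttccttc
Cav2 (chr6:17280935-17281234): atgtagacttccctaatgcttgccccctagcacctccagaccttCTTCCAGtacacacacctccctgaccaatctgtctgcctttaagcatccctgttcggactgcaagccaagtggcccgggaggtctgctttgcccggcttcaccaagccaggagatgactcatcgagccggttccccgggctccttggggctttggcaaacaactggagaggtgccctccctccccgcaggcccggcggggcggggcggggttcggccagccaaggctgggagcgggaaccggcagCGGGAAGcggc
Such windows were listed for 17 of the 36 genes, and the first listed window was read for each. The ETS motif was in 0 of 5 windows of genes that fell (Aqp7, Cav1, Erg, Meox2 and Eng), in 7 of 12 windows of the other genes, and in 39.7% of the 10350 windows of tested genes. No window was listed for the remaining genes that fell (Cdh5, Ptprb, Pecam1, Mmrn2, Sox7, Ets1 and Plvap). The 12 windows include that of Cldn5, which was not tested in the main fit. A match is only a run of letters, and its absence says only that these letters are not in this window.

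Plvap encodes the protein of endothelial diaphragms, which close caveolae and fenestrae. It was low, at 7.16, 11.4 and 11.8 CPM in STAT3cKO hearts and 15.8, 14.6 and 13.2 CPM in wild-type hearts. All STAT3cKO hearts were below the wild-type hearts (log2 fold change -0.52 ± 0.17, SE; edgeR adjusted p = 0.0445; -0.64 with the offset, adjusted p = 0.0281), but the call did not hold without STAT3cKO replicate 3 or without any of the wild-type hearts (adjusted p up to 0.139), nor without robust estimation (0.0541). Aqp7, a glycerol and water channel that adipocytes also express, had 31.0, 28.2 and 27.9 CPM in STAT3cKO hearts, against 38.4, 36.7 and 35.8 CPM in wild-type hearts. This was a small difference with little spread (log2 fold change -0.35 ± 0.10, SE; edgeR adjusted p = 0.0188; -0.34 with the offset, adjusted p = 0.0301), and it did not pass without STAT3cKO replicate 91 or wild type replicate 1 or 3 (adjusted p up to 0.0613).

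Fabp4, a fatty acid binding protein of capillary endothelium and adipocytes, was the most abundant of the 36 genes per kb of transcript, at a mean of 861 CPM per kb in STAT3cKO hearts and 733 CPM per kb in wild-type hearts. It had 813, 811 and 690 CPM in STAT3cKO hearts and 782, 597 and 591 CPM in wild-type hearts. The ranges overlapped through STAT3cKO replicate 91 and wild type replicate 1, and the log2 fold change was 0.23 ± 0.12 (SE, adjusted p = 0.19 by edgeR). Its transcript is 896 nt, and with the offset the sign turned to -0.14 (adjusted p = 0.464). Without wild type replicate 1 Fabp4 passed as higher (log2 fold change 0.38, adjusted p = 0.0426). Gpihbp1, which carries lipoprotein lipase across the capillary wall, had 0.21 ± 0.25 (adjusted p = 0.571), and the water channel Aqp1, also a protein of red blood cells, had -0.26 ± 0.16 (adjusted p = 0.251). Both had overlapping groups.

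**Figure D2:**
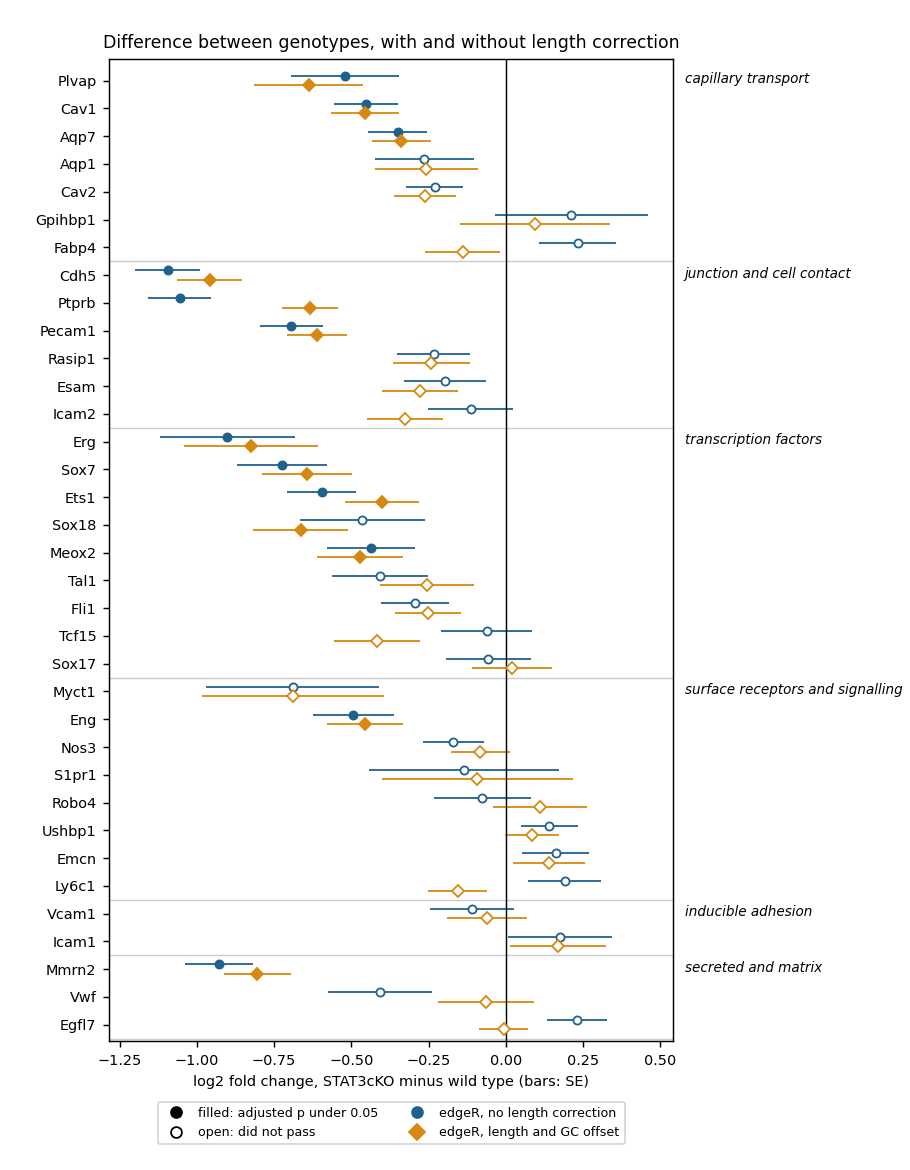
Log2 fold change (STAT3cKO minus wild type) ± SE of the 35 tested genes from edgeR, without a length correction (blue circles) and with the length and GC offset (orange diamonds), filled where the adjusted p is under 0.05. Cdh5 stays furthest below 0 in both fits, Ptprb and Ets1 move towards 0 with the offset, and Fabp4 and Ly6c1 change sign without passing.

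Surface receptors and signalling genes held 1 that fell among 8. Eng encodes endoglin, a co-receptor for TGF-beta family ligands of the BMP9 type, and was at 164, 128 and 111 CPM in STAT3cKO hearts against 206, 188 and 173 CPM in wild-type hearts. The groups did not overlap (log2 fold change -0.49 ± 0.13, SE; edgeR adjusted p = 0.0179; -0.46 with the offset), but Eng did not pass without STAT3cKO replicate 6 (adjusted p = 0.0525) or wild type replicate 1 (0.0707). With the offset Eng passed in 1 of 6 fits that left out 1 heart. Myct1, an endothelial membrane protein, had a larger difference and a wider spread, with 29.7, 13.96 and 29.1 CPM in STAT3cKO hearts and 42.0, 34.6 and 40.8 CPM in wild-type hearts. STAT3cKO replicate 6 was far below the other two, and Myct1 did not pass (log2 fold change -0.69 ± 0.28, SE; edgeR adjusted p = 0.125). Without that heart it passed at -0.42 (edgeR adjusted p = 0.0171). With all hearts DESeq2 (adjusted p = 0.00632) and limma-voom (0.0316) also called Myct1. So did edgeR without robust estimation (0.0475) or without a low-count filter (0.0402).

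Besides Eng, no gene of this role group passed with all hearts in the main edgeR fit or in the fit with the length and GC offset. Ly6c1, a surface marker of capillary endothelium and monocytes, was the most abundant of this group per kb, with 169, 155 and 183 CPM in STAT3cKO hearts and 176, 137 and 130.3 CPM in wild-type hearts. Its groups overlapped (log2 fold change 0.19 ± 0.12, SE; edgeR adjusted p = 0.255), and with the offset the value was -0.16. Without wild type replicate 1 Ly6c1 passed as higher (0.33, adjusted p = 0.0477). Ly6c2, a near copy that could share its reads, had at most 30 reads in any heart. Emcn, the sialomucin endomucin of capillaries and veins, had 0.16 ± 0.11 (adjusted p = 0.297). Nos3, the endothelial nitric oxide synthase, had -0.17 ± 0.10 (adjusted p = 0.225), the sphingosine 1-phosphate receptor S1pr1 had -0.14 ± 0.31 (adjusted p = 0.783), and the roundabout receptor Robo4 had -0.08 ± 0.16 (adjusted p = 0.755), or 0.11 with the offset. S1pr1 was at 98.3 CPM in STAT3cKO replicate 6, above every wild-type heart, and without that heart it passed as lower at -0.52 (adjusted p = 0.012). Ushbp1 had a log2 fold change of 0.14 ± 0.09 (adjusted p = 0.284).

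The cytokine-inducible adhesion molecules Icam1 and Vcam1, which capture leukocytes, did not pass. Vcam1 was at 24.2, 30.6 and 29.6 CPM in STAT3cKO hearts and 32.1, 34.2 and 24.7 CPM in wild-type hearts, fully mixed (log2 fold change -0.11 ± 0.14, SE; edgeR adjusted p = 0.583). Icam1 had 0.18 ± 0.17 (adjusted p = 0.472). The Icam1 window is shown because it alone of the 17 windows holds the STAT motif TTCNNNGAA, given in capitals (position 209 of the window, GRCm38.p6, plus strand). In human cells an element of this kind near the ICAM1 start is known to bind STAT factors after cytokine treatment.
Icam1 (chr9:21015690-21015989): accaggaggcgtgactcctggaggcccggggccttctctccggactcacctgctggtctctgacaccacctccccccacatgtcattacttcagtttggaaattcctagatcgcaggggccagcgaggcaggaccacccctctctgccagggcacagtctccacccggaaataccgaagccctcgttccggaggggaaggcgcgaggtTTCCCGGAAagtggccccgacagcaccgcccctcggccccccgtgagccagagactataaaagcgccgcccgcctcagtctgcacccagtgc
The STAT motif was in 6.81% of windows of tested genes, and no ETS match overlaps it in this window. Icam1 itself differed between genotypes by less than the spread between hearts.

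Of the secreted and matrix genes, Mmrn2 fell. It lies on chromosome 14 (34375465 to 34404287) and encodes multimerin 2, an endothelial matrix protein that binds the receptor CD93. It stood at 34.1, 34.3 and 27.6 CPM in STAT3cKO hearts against 67.0, 57.1 and 58.4 CPM in wild-type hearts. The groups were far apart (log2 fold change -0.93 ± 0.11, SE; edgeR adjusted p = 0.000246), also with the offset (-0.80, adjusted p = 0.000567) and in every fit that left out 1 heart. Egfl7, a secreted endothelial factor whose gene hosts the microRNA miR-126, had 131, 115 and 129 CPM in STAT3cKO hearts and 118, 103 and 98.1 CPM in wild-type hearts. Only STAT3cKO replicate 6 and wild type replicate 1 crossed, and Egfl7 did not pass (log2 fold change 0.23 ± 0.10, SE; edgeR adjusted p = 0.0968). Its value with the offset was -0.01, and without STAT3cKO replicate 6 it passed as higher (0.29, adjusted p = 0.0498). Vwf, the clotting factor stored by endothelial cells and platelets, had -0.41 ± 0.17 (adjusted p = 0.11) and, as an 8834 nt transcript, -0.06 with the offset. Vwf passed as lower without STAT3cKO replicate 6 (adjusted p = 0.0212) or wild type replicate 4 (0.0237) and by DESeq2 (0.0393).

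**Figure D3:**
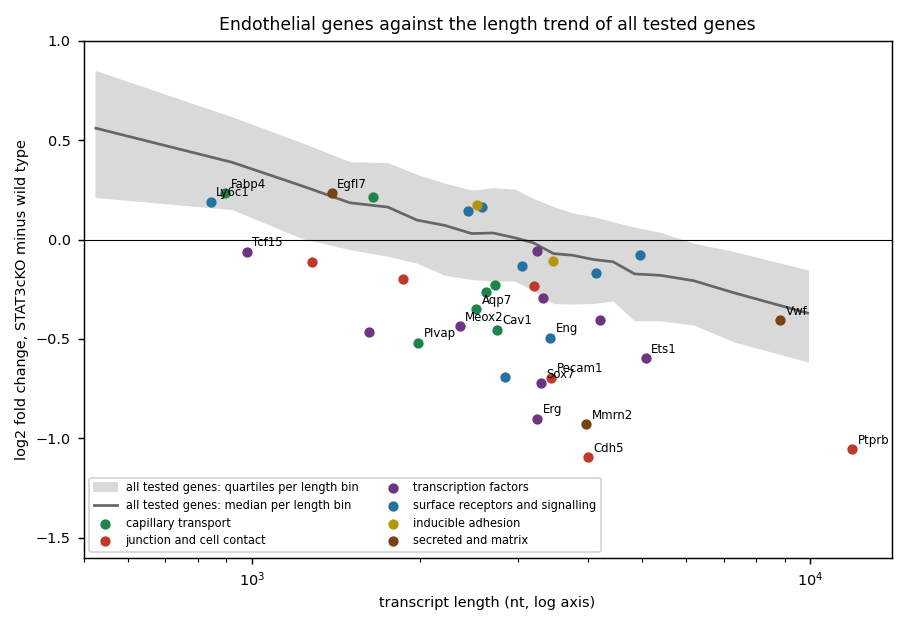
Log2 fold change without the offset against transcript length (nt, log axis) for the 35 tested genes, coloured by role, over the median and quartiles of all tested genes in length bins. Cdh5, Mmrn2, Erg and Pecam1 lie well under the band of genes of their length, while Fabp4, Egfl7 and Vwf lie inside it.

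Length was set beside the calls directly. Of the 36 genes all had an annotated transcript, with a median of 2796 nt. Among the 16 tested endothelial genes with transcripts of 2500 to 3500 nt, where all genes had a median log2 fold change of 0.00, 6 fell, beside 8.44% of all genes in that range. Among the 8 of 3500 nt or more, 4 fell, beside 23.7% of all genes. The 5 under 1500 nt held 0 that fell and 0 that rose, beside 1.97% and 32.0% of all genes of that length. The summed level of the transport genes was 1688, 1814 and 1467 CPM in STAT3cKO hearts and 2025, 1535 and 1657 CPM in wild-type hearts, which overlap, and Fabp4 makes up much of it. For the junction genes the sums were 521, 555 and 477 CPM in STAT3cKO hearts and 1008, 858 and 871 CPM in wild-type hearts, with a wide gap.

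Ratios to Pecam1 within each heart compare the genes with each other, and such a ratio does not move with the scaling between hearts. Because Pecam1 itself was lower in STAT3cKO hearts, a ratio that is higher there does not mean a higher level. Of 34 genes, 21 had ratios in STAT3cKO hearts that all lay above the wild-type ratios, 3 had ratios that all lay below, and 10 overlapped. Among the 14442 tested genes counted in every heart, 69.8% had ratios above and 1.62% below in the same way, so a ratio above is the common case and the 21 say nothing particular of these genes. The 3 below were Cdh5, Ptprb and Mmrn2. With the length and GC trend taken out, 21 were above and 2 below, and Ptprb overlapped, against 67.8% above and 1.62% below over all genes. For Cdh5 the ratio ran from 0.823 to 0.976 in STAT3cKO hearts and from 1.06 to 1.26 in wild-type hearts, a mean log2 difference of -0.40 that was -0.35 with the trend taken out. The ratio of Fabp4 ran from 4.90 to 5.75 in STAT3cKO hearts and from 2.57 to 2.94 in wild-type hearts, with a mean log2 difference of 0.93, or 0.47 with the trend taken out. Emcn stood at 0.449 to 0.499 in STAT3cKO hearts and 0.264 to 0.267 in wild-type hearts, a difference of 0.85, or 0.75 with the trend taken out. Among the transcription factors, the ratios of Sox17, Tcf15 and Fli1 were higher in every STAT3cKO heart (differences of 0.64, 0.64 and 0.39), and those of Sox7, Ets1, Erg, Sox18, Meox2 and Tal1 overlapped; with the trend taken out Tcf15 overlapped and Tal1 was above.

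**Figure D4:**
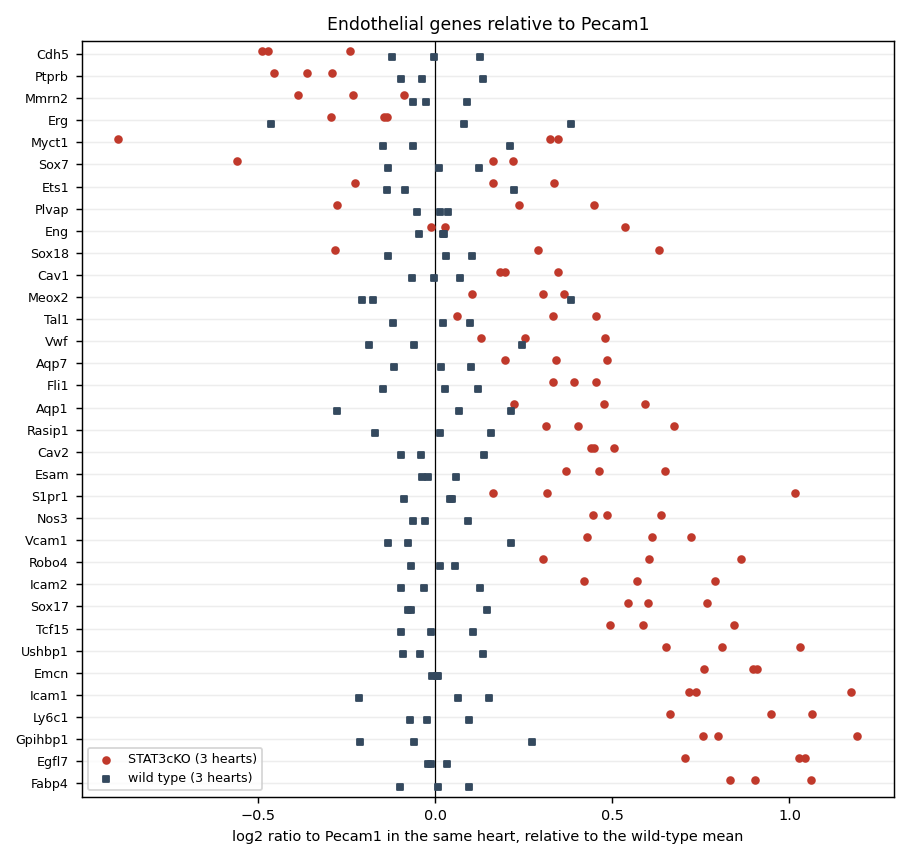
Log2 ratio of each tested endothelial gene to Pecam1 in the same heart, shown relative to the wild-type mean of that ratio, for 3 STAT3cKO hearts (circles) and 3 wild-type hearts (squares), without a length correction. Cdh5, Ptprb and Mmrn2 lie left of the wild-type hearts, 21 genes lie to the right, and Fabp4, Egfl7 and Gpihbp1 have the largest mean shifts, 0.93, 0.93 and 0.92.

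Other endothelial genes were also lower. Among 20 further pan-endothelial genes, 18 were tested, 11 fell and 0 rose, and 6 fell with the offset. At an unadjusted p under 0.05, 2 of them were higher, and DESeq2 and limma-voom called 0 higher. Cd93, the receptor for multimerin 2, had a log2 fold change of -0.89 (adjusted p = 9.9e-05 by edgeR). The VEGF and semaphorin co-receptor Nrp1 fell by 0.67, the sialomucin Podxl by 0.59 and Heg1, a receptor of endothelial junctions, by 0.60, although Heg1 did not pass with the offset (-0.23, adjusted p = 0.074). Of 7 further capillary genes, 4 fell and 1 rose. Flt1 and Kdr, the VEGF receptors, fell by 0.82 and 0.77 on the log2 scale, Cd300lg, a surface receptor of capillary endothelium, by 0.64 and Btnl9, a butyrophilin-like gene, by 0.57, which did not pass with the offset (-0.36, adjusted p = 0.14). The gene that rose was Car4, a carbonic anhydrase of the capillary surface, by 0.45 (adjusted p = 0.023 by edgeR), though not with the offset (0.24, adjusted p = 0.208). Arterial genes had the lowest median of the endothelial lists, -0.80, with 5 of 7 lower in both fits. Sema3g, a semaphorin of arterial endothelium, stood at 10.2, 12.3 and 11.99 CPM in STAT3cKO hearts and 43.6, 33.4 and 32.1 CPM in wild-type hearts (log2 fold change -1.66 ± 0.14, SE; edgeR adjusted p = 2.32e-05). The connexin gene Gja5 fell by 1.31, the kinase gene Bmx by 1.19 and the ephrin ligand Efnb2 by 0.69. Of 3 tested venous and endocardial genes 2 fell, Npr3 and Ephb4, and of 4 lymphatic genes Lyve1 and Flt4 fell without the offset and Lyve1 with it. Over these lists together 24 of 39 fell and 1 rose, and with the offset 17 fell. Over all tested genes 12.6% were lower and 13.2% higher, or 7.47% and 10.4% with the offset. The tested genes of these lists had a median transcript of 4106 nt. Of all genes of 3500 nt or more, 23.7% were lower without the offset.

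**Figure D5:**
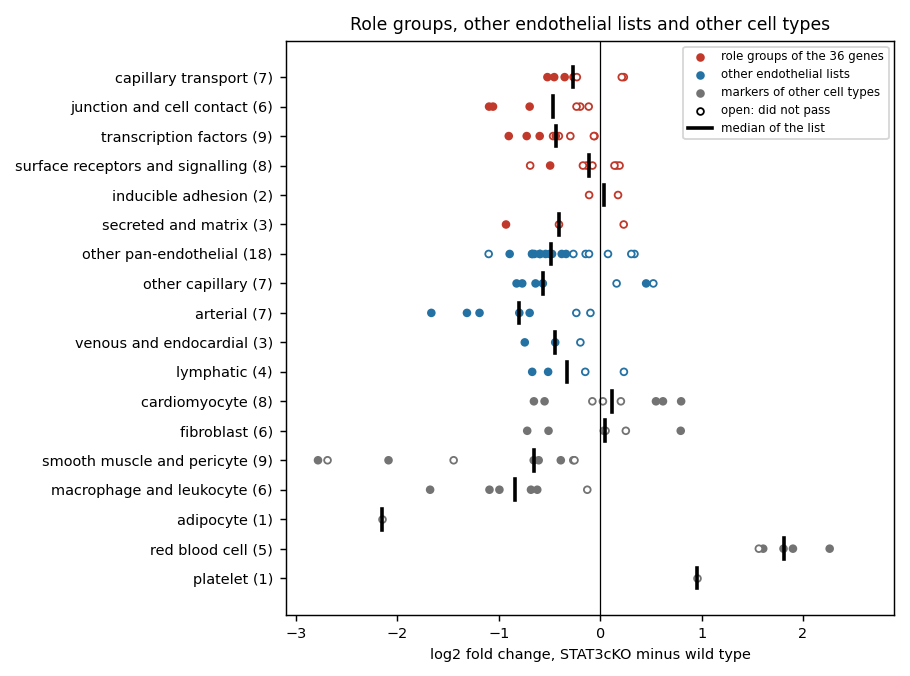
Log2 fold change (STAT3cKO minus wild type) of each tested gene by role group, other endothelial list and marker list of other cell types, with the number tested in brackets, filled where the edgeR adjusted p is under 0.05 and a bar at the list's median. The arterial, other capillary, other pan-endothelial, macrophage and smooth muscle lists have medians below those of the role groups. So does the adipocyte list, with 1 tested gene, and red blood cell genes lie to the right.

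Markers of other cells moved in the same hearts, and their part in the endothelial values was not tested. Smooth muscle and pericyte markers, of cells that share Cav1 and Meox2, fell in 5 of 9 cases and in 2 with the offset, with a summed level of 898 to 1177 CPM in STAT3cKO hearts and 1593 to 1677 CPM in wild-type hearts. Rgs5 makes up much of that sum, at a mean of 571 CPM in STAT3cKO hearts and 747 CPM in wild-type hearts. All 9 log2 fold changes were below 0, from -2.78 to -0.25. Those of the contractile genes Myh11 and Acta2 were -2.78 and -2.09, or -2.48 and -2.14 with the offset. Macrophage and leukocyte markers, of cells that share Pecam1, Fli1, Ets1 and Icam1, fell in 5 of 6 cases and in 4 with the offset, at 63.3 to 93.9 CPM in STAT3cKO hearts and 152 to 170 CPM in wild-type hearts. Red blood cell genes, of cells that share Aqp1, summed to 334 to 685 CPM in STAT3cKO hearts and 90.7 to 159 CPM in wild-type hearts, with 4 of 5 higher. With the offset 0 of 5 passed, although their median difference stayed at 1.48 on the log2 scale (1.81 uncorrected), and DESeq2 and limma-voom called 5 of 5 higher without the offset. Cardiomyocyte markers went both ways, with 3 higher and 2 lower of 8, and 1 higher and 1 lower with the offset, at 56180 to 67280 CPM in STAT3cKO hearts and 53710 to 60000 CPM in wild-type hearts. Fibroblast markers had 1 higher and 2 lower of 6, and 1 higher and 1 lower with the offset, at 1472 to 1878 CPM in STAT3cKO hearts and 1009 to 1531 CPM in wild-type hearts.

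Adipocyte markers, of cells that share Fabp4, Aqp7 and caveolins, summed to 0.955 to 1.97 CPM in STAT3cKO hearts and 2.16 to 14.6 CPM in wild-type hearts, the highest value being that of wild type replicate 3. Adipoq, the defining marker, was at no more than 1.61 CPM in any heart. Without wild type replicate 3 Cav1 still passed (log2 fold change -0.50, edgeR adjusted p = 0.0165) and Aqp7 did not (adjusted p = 0.0521). Platelet markers summed to at most 2.80 CPM in any heart, and Ppbp and Gp1bb were at 0 in all 6. Lung genes were at 0 to 0.205 CPM in STAT3cKO hearts and in wild type replicates 1 and 3, but at 16.7 CPM in wild type replicate 4, where the surfactant gene Sftpc was at 13.2 CPM. Lung tissue is rich in endothelium. Without wild type replicate 4 and without the offset, Cdh5, Ptprb, Pecam1 and Mmrn2 passed as before. Of the 12 genes that fell, only Plvap and Meox2 did not pass in that fit. With the offset, leaving out this heart gave 8 lower genes, against 13 with all hearts.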

How the data were processed

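RNA from 6 mouse hearts was sequenced, and the authors deposited raw read counts per gene, used here as deposited. Reads were aligned with HISAT2 to GRCm38, per the submitters' processing notes; for the counter, annotation and strand setting, the sources used here give nothing. The deposited counts were fitted in R 4.3.3 with edgeR 4.0.16 (TMM, filterByExpr minimum count 10, robust quasi-likelihood test), with limma 3.58.1 and DESeq2 1.42.0 as alternatives. Transcript length and GC came from the longest protein-coding transcript of each gene in GENCODE M21, or the longest of any kind where none was coding. A length was found for 93.8% of tested genes. The offset took, for every heart, a spline trend with 5 degrees of freedom of log counts on length and GC. The code was tested on simulated data. Total counts of 15416877 to 18264052 per heart set the counting error.

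Values per heart are given for genes that passed with or without the offset, for those with an absolute log2 fold change of at least 0.5, and for the most abundant gene per kb of each role group. Further lists name up to 4 genes each, by smallest adjusted p; Car4 was named besides, after its values were seen, as the gene of its list that rose. The genes and lists were chosen with earlier results of these data known. Promoter windows came from RefSeq on GRCm38.p6 for 17 genes. Other scalings, filters, tests and fits without each heart were tried as alternatives.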

Additional observations from a re-analysis of the deposited data

How the results depend on the processing

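Cdh5, Ptprb, Pecam1, Mmrn2, Sox7, Ets1 and Cav1 passed as lower in every fit that left out 1 heart, and the first 5 of these also with the offset and 1 heart left out, an alternative chosen after seeing the data. Over the 36 genes, leaving out 1 heart gave 7 to 15 lower genes with or without the offset and 0 to 2 higher, and among transport genes 1 to 3 lower and 0 to 1 higher. Without a low-count filter and by library size alone 16 were lower. The offset turned the sign of genes that did not pass: Fabp4 -0.14 (length alone -0.11), Ly6c1 -0.16 (length alone -0.18), Robo4 0.11 (length alone 0.10), Sox17 0.021 (length alone -0.01) and Egfl7 -0.007 (length alone 0.02), the last 2 keeping their sign under length alone. With the offset and 1 heart left out, Cav1 and Sox18 passed in 5 of 6 fits, Erg in 3, Plvap, Ets1 and Meox2 in 2, and Aqp7 and Eng in 1. Leaving out 1 heart gave log2 fold changes on both sides of 0 for Gpihbp1 (-0.004 to 0.47), Icam2 (-0.20 to 0.051), Robo4 (-0.29 to 0.089), S1pr1 (-0.52 to 0.061), Sox17 (-0.16 to 0.011) and Tcf15 (-0.18 to 0.089). The cause was not tested. No paired analysis was possible because the genotypes share only replicate number 3. Cldn5, with at most 10 reads in a heart, was left out of the main fit by the low-count filter. Without that filter it did not pass (log2 fold change -1.02 ± 0.72, SE, adjusted p = 0.394 by edgeR).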
